A study of Mus musculus with 9 samples.

Results

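Neurons move cargo along axonal microtubules with 2 kinds of motor, and the genes described here encode those motors and their helpers. Kinesins (Kif genes) walk mostly toward the growing end of the microtubule and so carry vesicles, mitochondria and cytoskeletal parts from the cell body to the nerve terminal. Cytoplasmic dynein, which works with the dynactin complex, carries endosomes and survival signals back, and adaptors such as Trak and JNK-interacting proteins tie a motor to its cargo. Motor neurons (MNs) have some of the longest axons in the body, and mutations in several of these genes cause motor neuropathies.

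The members were chosen by name from the array's platform annotation: every numbered Kif gene, the kinesin light chains Klc, the dynein 1 and 2 subunits Dync, the dynein light chains Dynll, Dynlrb and Dynlt, the dynactin subunits Dctn2 to Dctn6, and the adaptors Trak, Mapk8ip and Bicd1. Dync1h1, Dctn1 and Bicd2 were left out by the rule. Of 30176 genes that had a transcript cluster with a single symbol, 62 were members, measured by 63 clusters because Dctn6 had a pair. Where a gene had more than 1 cluster, the brighter stood for it. Klc2 and Bicd1 had no cluster with a single symbol in the annotation used here, and 9 clusters that named a member beside another symbol, among them those of Kif1c, Kif17 and the near-identical genes Dynlt1a, Dynlt1c and Dynlt1f, were not used. The rule also took 3 gene copies, Kif22-ps, Kif4-ps and Dynlt1-ps1, and signal on these cannot be assigned to the copy alone.

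RNA came from MNs of 9 mice of a single litter at postnatal day 14, which the labels and methods call wild-type FVB. WGA-HRP, a peroxidase-tagged lectin that nerve endings take in and ship to the soma, was injected into 1 muscle of each mouse on both sides, and all MN soma stained for it were taken by laser capture 48 h later. The muscle was the extensor digitorum longus (EDL, 1 µl; mice M11, M14 and M33), the gastrocnemius (GS, 3 µl; mice M13, M30 and M31; GC in the labels) or the tibialis anterior (TA, 3 µl; mice M0, M1 and M3), muscles the study ordered from resistant over intermediate to vulnerable in spinal muscular atrophy (SMA). Each mouse gave 1 array, the labels and methods differ on the level and thickness of the cord sections, and the series text speaks of normal mice on an SMA background. The label itself was carried in by retrograde transport, the process that some of the members serve, so the soma captured were those that had taken up and transported the lectin. All TA mice bear lower numbers than the other mice, so anything that ran along the numbering cannot be told apart from the TA pool.

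Values are log2 signals as deposited, so a difference of 1 is a 2-fold difference, and they are compared between pools for 1 gene at a time, never between genes. Negative control probe sets had median signals of 5.98 to 6.48 on the 9 arrays, and 42 of the 62 members lay above that median on every array. TA mice M0 and M1 stood apart: the first principal component, with 56.5% of the variance, placed them at 77.33 and 98.53, against 8.72 for M3, and their positive and negative controls were the least well separated (area under the curve 0.779 and 0.778, against 0.828 for M3, 0.831 to 0.838 for the GS arrays and 0.844 to 0.854 for the EDL arrays). The mean signal of 8 MN markers was 12.4 to 12.67 in EDL, 12.23 to 12.26 in GS, and 11.73 (M0), 11.39 (M1) and 12.41 (M3) in TA, with all 8 lying above the negative controls on every array. Markers of oligodendrocytes, which wrap axons in myelin, were bright in all pools (13.38 to 13.48 in EDL, 13.52 to 13.6 in GS and 13.29 to 13.72 in TA, 6 of 6 above the controls), whereas the mean signals of dividing cell markers (5.97 to 6.04 in EDL, 5.97 to 6.31 in GS and 6.02 to 6.05 in TA, 1 of 7 above the controls on all arrays) and ciliated cell markers (5.41 to 5.44 in EDL, 5.39 to 5.44 in GS and 5.34 to 5.41 in TA, 1 of 5) were near or below the controls. Astrocyte markers averaged 10.15 to 10.46 in EDL, 10.12 to 10.46 in GS and 10.24 to 10.63 in TA, endothelial markers 7.9 to 8.17, 8.1 to 8.37 and 8.05 to 8.58, interneuron markers 7.79 to 7.98, 8.09 to 9.15 and 7.77 to 8.09, and microglia markers 6.79 to 6.85, 6.79 to 6.88 and 6.56 to 6.81 in the same order. Of all these markers, Slc1a2 of astrocytes was called lower in EDL than in TA (-0.429, adjusted p = 0.0438 in limma). Cldn5 of endothelium was called higher (1.271, adjusted p = 0.0331 in limma). Pecam1, Flt1, Cdh5, Kdr and Tie1 of the same list lay the other way, from -0.869 to -0.263, without a call. Of the other astrocyte markers, Aldoc (0.902) and Gfap (0.297) lay higher in EDL and Slc1a3, Aldh1l1 and Gja1 lower, none of them called. The part of the marker levels in the differences below was not tested.

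The promoters of the 3 protein-coding members called below are shown first, because Dynll1 and Dynlrb1 were both higher in EDL than in TA MNs and Trak2 was lower. Each runs 5′ to 3′ on the gene's strand from 250 bases before to 50 after the RefSeq start (GRCm38.p6), and 46 of the 62 members matched an entry, with 55 entries in all. Capitals mark a CCAAT box (CCAAT) or a GC box (GGGCGG) on either strand.
Dynll1, chr5:115300941-115301240, minus strand: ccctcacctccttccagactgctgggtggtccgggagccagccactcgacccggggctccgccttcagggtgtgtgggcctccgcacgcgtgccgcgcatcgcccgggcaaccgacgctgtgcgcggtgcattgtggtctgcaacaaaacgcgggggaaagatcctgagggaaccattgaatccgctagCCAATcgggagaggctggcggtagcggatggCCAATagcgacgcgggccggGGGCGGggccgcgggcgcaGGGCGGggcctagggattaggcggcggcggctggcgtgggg
Dynlrb1, chr2:155236283-155236582, plus strand, the first of its 2 entries: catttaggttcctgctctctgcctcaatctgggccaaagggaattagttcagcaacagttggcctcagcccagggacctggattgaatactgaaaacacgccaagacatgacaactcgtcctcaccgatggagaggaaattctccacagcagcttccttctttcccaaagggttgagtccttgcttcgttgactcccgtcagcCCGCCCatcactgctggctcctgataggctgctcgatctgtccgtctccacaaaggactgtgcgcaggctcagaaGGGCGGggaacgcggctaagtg
Trak2, chr1:58973433-58973732, minus strand: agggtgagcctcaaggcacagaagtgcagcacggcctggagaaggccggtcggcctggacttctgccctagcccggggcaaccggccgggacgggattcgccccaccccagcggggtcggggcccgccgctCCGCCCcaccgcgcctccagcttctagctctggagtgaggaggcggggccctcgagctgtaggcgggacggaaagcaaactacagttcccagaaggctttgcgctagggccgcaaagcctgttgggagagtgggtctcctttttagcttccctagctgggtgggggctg
The Dynll1 promoter held 2 CCAAT boxes and 2 GC boxes and was 71.0% G and C, that of Dynlrb1 held 2 GC boxes at 55.0%, and that of Trak2 held 1 GC box at 67.7%, against a median of 52.7% over all 32851 promoters. A GC box was in 38 of the 55 member entries and in 35.7% of all promoters, and a CCAAT box in 22 of 55 and in 37.4%. A cyclic AMP response element (TGACGTCA) was in 5 of 55 and 1.8% of all, an ETS site (CCGGAAG) in 10 of 55 and 8.9%, an E-box (CACGTG) in 2 of 55 and 7.2%, and a TATA box (TATAAA) in 4 of 55 and 13.6%. None of these last 4 was in the printed windows, the motifs share no overlapping letters there, and a match is a description of the letters only.

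Resistant EDL MNs were first compared with vulnerable TA MNs. Of the 62 members, 3 were called higher in EDL MNs (Dynll1, Dynlrb1 and Dynlt1-ps1) and 1 was called lower (Trak2) at an adjusted p under 0.05 in limma, with adjustment over all 65956 clusters. Over all named genes 4.76% were called higher and 0.968% lower, so the members' shares of 4.84% and 1.61% were near those of the array as a whole. Among the motors of anterograde transport, Kif5a, Kif5c, Kif1a and Kif1b differed by 0.06 or less, whereas Kif5b (0.316), Kif3a (0.325) and Kif21a (0.432) had higher means in EDL that did not pass the test. Kif3c (0.221) lay higher and Kif3b (-0.099) lower, also without a call. With M3 as the only TA mouse, EDL minus TA was 0.3 for Kif5b, 0.09 for Kif3a and 0.16 for Kif21a. The median difference was 0.017 over the 62 members and 0.056 over the 42 above the negative controls, against -0.004 and 0.03 over all named genes handled in the same way.

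Dynll1 encodes the LC8 light chain, a small dimer that binds the dynein intermediate chain and many other partners. Its signal was 9.53, 9.45 and 9.49 in EDL mice M11, M14 and M33, 9.58, 9.53 and 9.44 in GS mice M13, M30 and M31, and 9.09, 9.12 and 9.20 in TA mice M0, M1 and M3. These last 3 values lay below all 6 others, and the EDL and GS values overlapped. The difference between EDL and TA was 0.351 (SE 0.052, 1.275-fold, adjusted p = 0.0197 in limma) and that between GS and TA 0.380 (adjusted p = 0.0406 in limma), the only member call in the second comparison. The 2 comparisons share the TA mice. M3, whose array was nearest to the others, deviated from the EDL mean by -0.29, and M0 and M1 by -0.40 and -0.37. In samples of this kind fewer cells of a type and less RNA per cell cannot be told apart.

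Its close paralog Dynll2 did not pass the test. Dynll2 read 11.84, 11.96 and 11.96 in EDL mice, 12, 12.06 and 12.06 in GS mice and 11.96 to 2 decimals in each TA mouse, so that EDL minus TA was -0.036 (SE 0.045, adjusted p = 0.679 in limma). Whether the 2 paralogs differ in their contrast between pools was not tested.

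Dynlrb1 encodes the roadblock light chain of dynein. Its signal was 13.96, 13.85 and 14.01 in EDL mice, 13.86, 13.80 and 13.59 in GS mice, and 13.42, 13.21 and 13.50 in TA mice. The EDL values overlapped those of GS at 1 mouse, M13, and both pools lay wholly above TA. EDL minus TA was 0.567 (SE 0.099, 1.481-fold, adjusted p = 0.0273 in limma), and GS minus TA was 0.377 (SE 0.099, adjusted p = 0.134 in limma). Its sister gene Dynlrb2, best known from cilia, was below the negative controls on every array.

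The Tctex-type light chains were measured in part only, since most of their genes share probes. Dynlt3 differed little, with means of 8.08 ± 0.08 in EDL, 8.08 ± 0.12 in GS and 8.04 ± 0.06 in TA (SD, n = 3 each). The single-symbol cluster of Dynlt1b was below the negative controls on all arrays. The cluster named for the copy Dynlt1-ps1, on chromosome 6, read 9.12, 9.13 and 9.46 in EDL mice, 9.20, 8.92 and 8.76 in GS mice, and 8.56, 8.24 and 8.71 in TA mice. All EDL values were above all TA values, with a difference of 0.735 (SE 0.164, 1.664-fold, adjusted p = 0.0497 in limma), and RNA of the copy cannot be told apart here from that of the near-identical functional Dynlt1 genes.

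Trak2, which links kinesin-1 and dynein to mitochondria through the Miro proteins, was the only member called lower in EDL MNs. It read 10.26, 10.07 and 10.15 in EDL mice, 10.29, 10.48 and 10.38 in GS mice, and 10.84, 10.90 and 10.56 in TA mice. The 3 pools did not overlap, with EDL lowest, GS between and TA highest. EDL minus TA was -0.606 (SE 0.100, 0.657-fold, adjusted p = 0.0247 in limma), and GS minus TA was -0.381 (SE 0.100, adjusted p = 0.133 in limma). Trak1, the paralog that is best known for carrying mitochondria into axons, read 9.33, 9.34 and 9.33 in EDL mice, 9.31, 9.33 and 9.26 in GS mice, and 9.33, 9.33 and 9.52 in TA mice, with EDL minus TA at -0.062 (SE 0.059, adjusted p = 0.58 in limma).

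**Figure D1:**
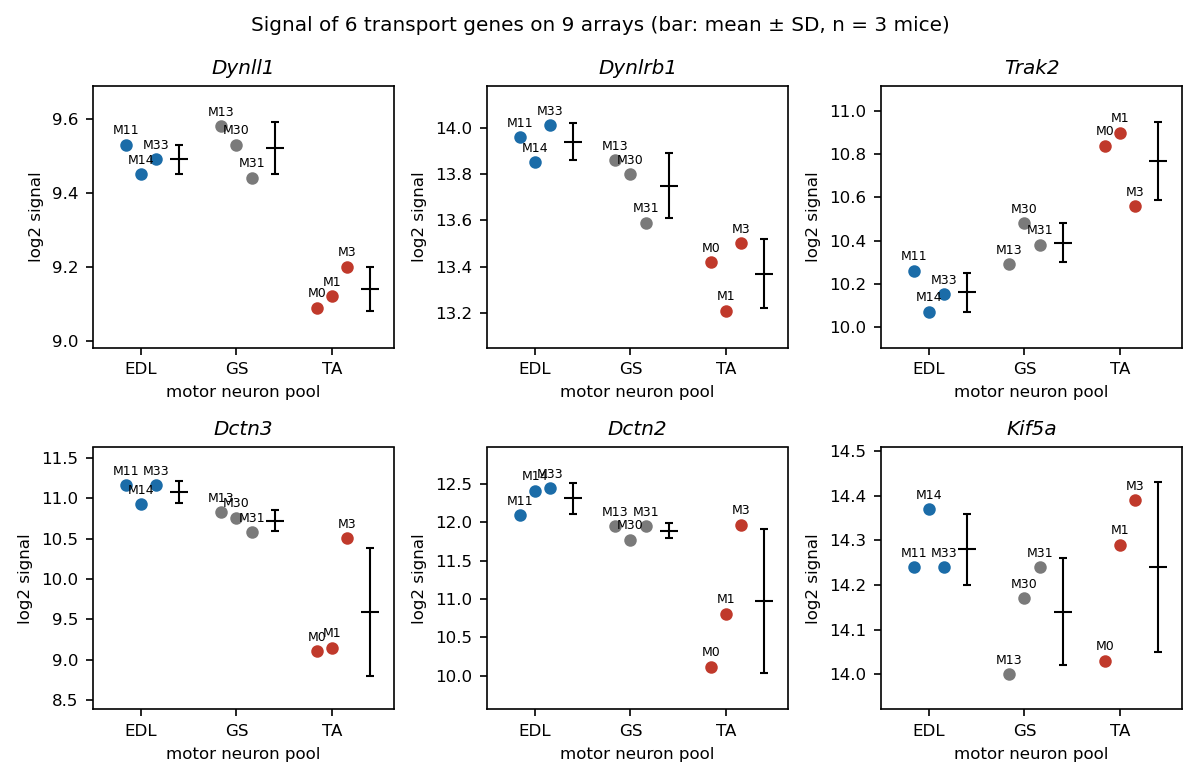
Log2 signal (y axis, a separate range for each gene that does not start at 0) of 6 members on the 9 arrays by MN pool (x axis: EDL, GS, TA); points are mice with their numbers, and bars are the mean ± SD of 3 mice. Dynll1, Dynlrb1, Dctn3 and Dctn2 are lower and Trak2 higher in all 3 TA mice than in any EDL mouse. For Dctn3 and Dctn2 mice M0 and M1 lie far below M3, and the Kif5a values of the pools overlap.

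These 4 calls between EDL and TA depended on the arrays and the spread used in the fit. With the spread taken from these 2 pools alone none passed (adjusted p = 0.0747 to 0.124 in limma), and without moderation of the spread only Dynll1 did (adjusted p = 0.0458). Removal of M0 and M1 left M3 as the only TA mouse, so that fit holds no spread between TA mice. The differences were then 0.286 for Dynll1, 0.443 for Dynlrb1, 0.533 for Dynlt1-ps1 and -0.401 for Trak2. All were smaller in size than with all 3 TA mice, in the same direction. Each of the 4 calls was lost when any 1 EDL mouse was left out (adjusted p = 0.0705 to 0.081 for Dynll1, 0.0832 to 0.106 for Dynlrb1, 0.111 to 0.153 for Dynlt1-ps1 and 0.0681 to 0.0937 for Trak2, all limma). Leaving out a GS or a TA mouse kept Dynll1 in all 6 cases, Trak2 in 3 (lost without M30, M0 or M1), Dynlrb1 in 2 (lost without M13, M30, M0 or M1) and Dynlt1-ps1 only without M3. Without M3 the count of calls was 11 higher and 1 lower, among them Dctn2, Dctn3, Klc1, Klc4, Kif2a, Kif3a, Dync1i2 and Dync1li1. The share of all named genes called was counted for the main fit only, so counts from other fits have no such share beside them. Quantile normalization gave 5 higher and 3 lower, against 3 and 1 as deposited, and with it Dynlrb1 was no longer called (0.382, adjusted p = 0.0855 in limma). The higher calls it added were Dctn3, Dync2li1 and Kif22. Its added lower calls were Kif1b (-0.192, adjusted p = 0.044) and Mapk8ip3 (-0.282, adjusted p = 0.0198, both limma). Dynlt1-ps1 was no longer called with array weights (adjusted p = 0.0766) or with a trended spread (adjusted p = 0.054, both limma).

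Dynactin, the large partner of dynein that makes it processive and binds cargo, held the 2 largest differences, neither of which passed the threshold. Dctn3, a small subunit of the shoulder that joins dynactin's arm to its filament, read 11.16, 10.93 and 11.16 in EDL mice, 10.83, 10.76 and 10.58 in GS mice, and 9.11, 9.15 and 10.51 in TA mice. EDL minus TA was 1.495 (SE 0.348, 2.818-fold, adjusted p = 0.0546 in limma), and TA mice M0 and M1 deviated from the EDL mean by -1.97 and -1.93, against -0.58 for M3. With dim clusters left out of the adjustment it passed (adjusted p = 0.0271 in limma). Without M0 and M1 the difference was 0.58. Dctn2, or dynamitin, whose excess takes dynactin apart, read 12.09, 12.41 and 12.44 in EDL mice, 11.95, 11.77 and 11.95 in GS mice, and 10.12, 10.81 and 11.97 in TA mice. TA mouse M3 thus lay just above the GS mice, EDL minus TA was 1.345 (SE 0.411, adjusted p = 0.108 in limma), and without M0 and M1 it was 0.34.

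The subunits at the pointed end of the dynactin filament differed less. Dctn5 averaged 13.70 ± 0.06 in EDL, 13.57 ± 0.06 in GS and 13.50 ± 0.17 in TA, and Dctn6 9.42 ± 0.03, 9.42 ± 0.03 and 9.26 ± 0.12 (SD, n = 3 each), with EDL minus TA of 0.198 (adjusted p = 0.215 in limma) and 0.158 (adjusted p = 0.184 in limma). Dctn4 averaged 13.59 ± 0.04 in EDL, 13.58 ± 0.06 in GS and 13.66 ± 0.20 in TA (SD, n = 3 each). Of the 5 dynactin members, 4 were higher in EDL at an unadjusted p under 0.05 in limma and 0 at the adjusted threshold. At that unadjusted threshold 4519 of 30176 named genes were higher, and 3832 of the 14728 that lay above the negative controls on all arrays. In either direction 17 of the 62 members (27.4%) passed the unadjusted threshold, 15 higher and 2 lower, beside 22.5% of named genes.

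The other dynein 1 chains, which hold the motor together and select its cargo, differed in both directions without a call. The intermediate chains Dync1i2 and Dync1i1 had EDL minus TA of 0.261 (SE 0.079, adjusted p = 0.106 in limma) and 0.219 (SE 0.095, adjusted p = 0.222 in limma). Dync1i2 read 12, 12.04 and 11.97 in EDL mice, 11.92 to 2 decimals in each GS mouse, and 11.60, 11.71 and 11.92 in TA mice, with EDL above the other pools on every array. The light intermediate chain Dync1li1 averaged 12.88 ± 0.08 in EDL, 12.84 ± 0.03 in GS and 12.69 ± 0.27 in TA (SD, n = 3 each). Its paralog Dync1li2 lay the other way, at 11.31, 11.41 and 11.39 in EDL mice, 11.41, 11.46 and 11.29 in GS mice, and 11.60, 11.44 and 11.56 in TA mice, with EDL minus TA of -0.163 (SE 0.064, adjusted p = 0.185 in limma). Dync2li1 and Dync2h1 of dynein 2, the motor of cilia, averaged 8.12 ± 0.03 and 7.34 ± 0.02 in EDL, 7.84 ± 0.09 and 7.33 ± 0.01 in GS, and 7.87 ± 0.15 and 7.27 ± 0.09 in TA (SD, n = 3 each).

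Kinesin-1, the main motor for vesicles and mitochondria, is built of Kif5 heavy and Klc light chains. Kif5a, the neuronal heavy chain mutated in hereditary spastic paraplegia and amyotrophic lateral sclerosis, read 14.24, 14.37 and 14.24 in EDL mice, 14, 14.17 and 14.24 in GS mice, and 14.03, 14.29 and 14.39 in TA mice. Its pools overlapped throughout, with EDL minus TA of 0.048 (SE 0.105, adjusted p = 0.829 in limma). Kif5c, also neuronal, averaged 13.87 ± 0.06 in EDL, 13.84 ± 0.09 in GS and 13.83 ± 0.19 in TA (SD, n = 3 each). Kif5b, the ubiquitous heavy chain, read 13.47, 13.63 and 13.47 in EDL mice, 13.45, 13.59 and 13.47 in GS mice, and 12.94, 13.45 and 13.22 in TA mice, with EDL minus TA of 0.316 (SE 0.122, adjusted p = 0.18 in limma). Every TA value of Kif5b lay below every EDL and GS value, TA mouse M1 only by the third decimal below GS mouse M13.

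The light chain Klc1 read 12.94, 13.13 and 13.17 in EDL mice, 12.90, 12.98 and 13.18 in GS mice, and 12.46, 12.62 and 12.98 in TA mice. M3 was within the range of the other pools, and EDL minus TA was 0.392 (SE 0.143, adjusted p = 0.159 in limma). Klc4, looked at after its values were seen, had a difference of 0.371 (SE 0.126, adjusted p = 0.136 in limma), and Klc3 was near the negative controls in all pools.

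Kinesin-2 carries late endosomes, fodrin-bearing vesicles and ciliary cargo. Kif3a, its shared subunit, read 11.92, 11.81 and 11.73 in EDL mice, 11.72, 11.84 and 11.73 in GS mice, and 11.33, 11.44 and 11.73 in TA mice, where M3 equalled the lowest EDL value, and EDL minus TA was 0.325 (SE 0.107, adjusted p = 0.127 in limma). Its alternative partners differed in sign, at 0.221 for Kif3c (SE 0.135, adjusted p = 0.381 in limma) and -0.099 for Kif3b (SE 0.104, adjusted p = 0.618 in limma).

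Kinesin-3 carries synaptic vesicle precursors and dense-core vesicles. Kif1a, its main neuronal member, read 15.42, 15.50 and 15.44 in EDL mice, 15.35, 15.37 and 15.41 in GS mice, and 15.37, 15.50 and 15.52 in TA mice, and Kif1b averaged 14.49 ± 0.01 in EDL, 14.50 ± 0.00 in GS and 14.55 ± 0.07 in TA (SD, n = 3 each). EDL minus TA was -0.010 for Kif1a (SE 0.051, adjusted p = 0.94 in limma) and -0.056 for Kif1b (SE 0.044, adjusted p = 0.507 in limma). All 6 kinesin-3 members had differences between -0.151 and -0.010, and 0 of the 6 passed the unadjusted threshold in limma, beside the same 22.5% of named genes. Of the 6, 5 lay above the negative controls on all arrays, and Kif14 lay below them on every array.

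Of the other families, Kif21a, a kinesin-4 that restrains microtubule growth and is mutated in a congenital eye movement disorder of MN wiring, read 14.04, 14.15 and 13.85 in EDL mice, 13.63, 13.92 and 13.85 in GS mice, and 13.23, 13.66 and 13.85 in TA mice. The highest TA value of Kif21a equalled the lowest EDL value, and EDL minus TA was 0.432 (SE 0.164, adjusted p = 0.173 in limma). Kif2a, which takes microtubule ends apart and prunes axon branches, averaged 12.52 ± 0.07 in EDL, 12.46 ± 0.08 in GS and 12.29 ± 0.26 in TA (SD, n = 3 each). The JNK-interacting adaptors Mapk8ip1, Mapk8ip2 and Mapk8ip3 had EDL minus TA of 0.139, 0.180 and -0.046 (adjusted p = 0.292, 0.395 and 0.747 in limma). The 9 kinesins of cell division, such as Kif11 and Kif23, gave a family of low signals: 0 of 9 lay above the negative controls on all arrays, and their differences between EDL and TA ran from -0.095 to 0.185.

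**Figure D2:**
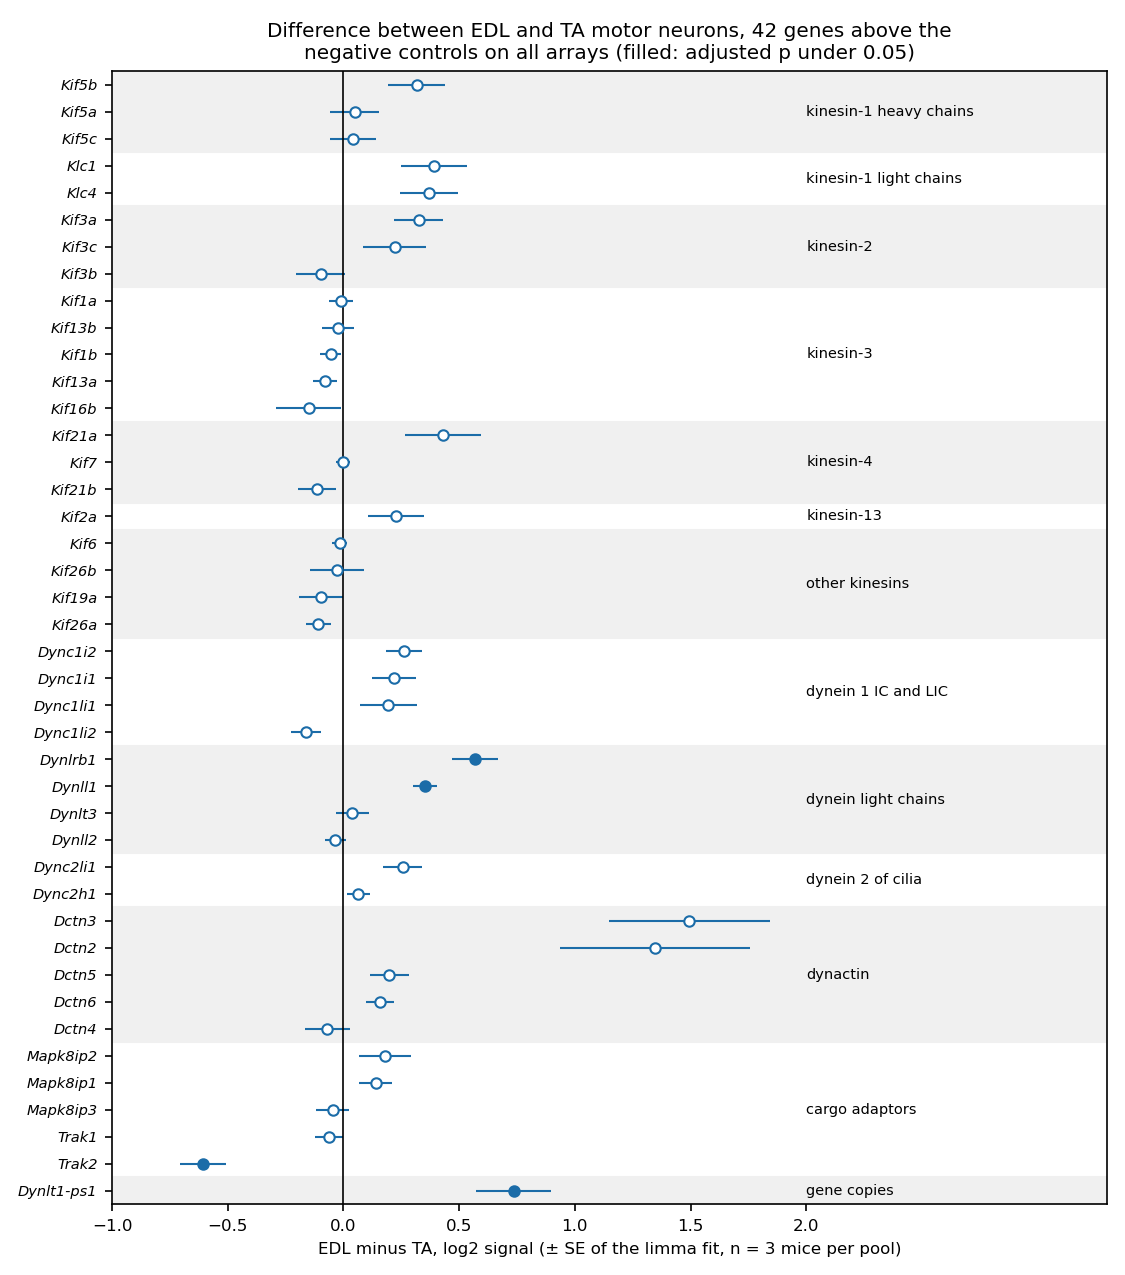
EDL minus TA on the log2 scale (x axis) for the 42 members above the negative controls on all arrays (y axis, grouped by family); points are differences of means of 3 mice and bars the SE of the limma fit, filled where the adjusted p is under 0.05. Kif5a, Kif5c and the kinesin-3 genes lie near 0, Dynlrb1, Dynll1 and Dynlt1-ps1 are filled on the right and Trak2 on the left, and Dctn3 and Dctn2 have the largest differences with the widest bars.

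The study sorted genes by a graded order across the pools, here taken as an EDL minus TA contrast with an unadjusted p under 0.05 in which GS ranked second. By this measure 12 of 62 members (19.4%) ran from high in EDL to low in TA, beside 13.5% of all named genes, and 2 (3.23%) ran the other way, beside 6.2%. The 12 were Dctn2, Dctn3, Dctn5, Dync1i2, Dynlrb1, Dynlt1-ps1, Kif3a, Kif5b, Kif21a, Kif22, Klc1 and Klc4, and the other 2 were Dync1li2 and Trak2. Kif22, a kinesin of cell division, lay below the negative controls on all arrays. In 13 members (21.0%) every EDL value lay above every TA value, beside 14.7% of named genes, and in 2 (3.23%) every EDL value lay below, beside 8.35%. The 13 include Kif22 and also Kif20b, which was above the negative controls on only 2 arrays. Without M0 the count of 12 graded members was 7 of 62.

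The 3 TA mice were far from alike. The median deviation of the 42 members from the EDL mean was -0.100 in M0, -0.102 in M1 and -0.010 in M3, against -0.065 to -0.003 in the GS mice, and the same medians over 14728 named genes were -0.045, -0.036 and -0.008. The median SD of the 42 members within a pool was 0.061 in EDL, 0.088 in GS and 0.158 in TA. In Dctn6, Trak1, Kif3b and Mapk8ip3, by contrast, M3 lay farther from the EDL mean than M0 or M1. Between genes, longer members tended to have lower differences: over the 42 members the Spearman correlation of gene span with EDL minus TA was -0.407, beside -0.153 over 14602 named genes, all from the same 9 arrays. With EDL minus GS in its place the correlations were -0.15 and -0.051. The 42 include Dynlt1-ps1, entered with the 707 bases of the copy.

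**Figure D3:**
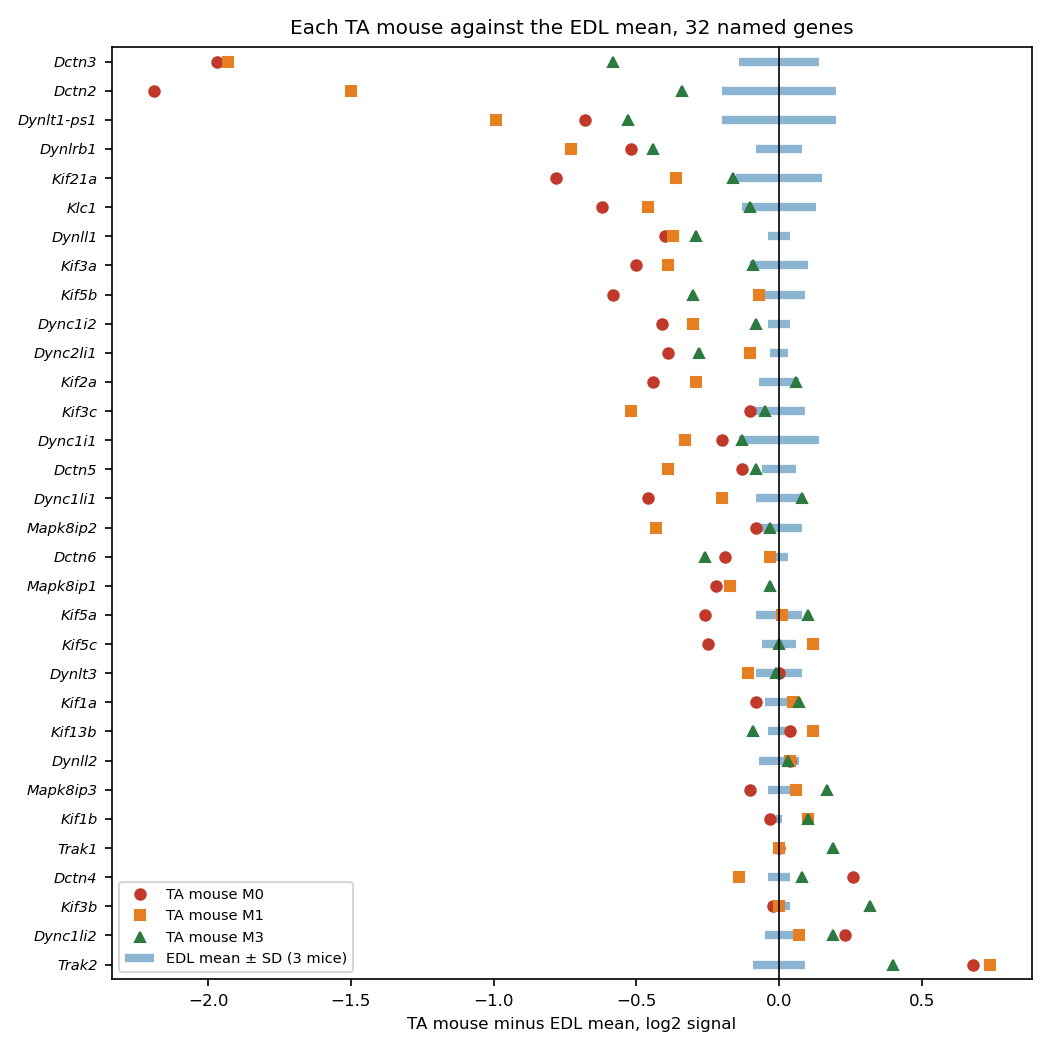
Log2 signal of each TA mouse minus the EDL mean (x axis) for the 32 named members (y axis, ordered by EDL minus TA); markers are mice M0, M1 and M3, and the blue band is the SD of the 3 EDL mice around their mean. For Dctn3 and Dctn2 M0 and M1 are more than 1 below the EDL mean with M3 much nearer. For these genes, and for Dynll1, Dynlrb1 and Trak2, all 3 TA mice lie outside the band.

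Intermediate GS MNs were next compared with TA MNs, which again serve as the set against which both other pools are measured. Dynll1 alone was called higher (1 of 62, 1.61%, beside 0.603% of named genes) and 0 were called lower (beside 0.146%). With M3 left out the count was 9 higher and 1 lower. With any other mouse left out, or with the spread taken from GS and TA alone, it was 0. The share of all named genes called in these fits was not counted. Dctn3 and Dctn2 had GS minus TA of 1.135 (SE 0.348, adjusted p = 0.183 in limma) and 0.923 (SE 0.411, adjusted p = 0.333 in limma), and without M0 and M1 these were 0.22 and -0.09. Kif5a, Kif5c and Kif1a had -0.101, 0.017 and -0.089 (adjusted p = 0.686, 0.957 and 0.452 in limma).

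EDL and GS MNs, the resistant and the intermediate pool, gave no member call in limma, and 0.0% of all named genes were called. At an unadjusted p under 0.05 there were 4 of 62 members, beside 3.86% of named genes: Dync2li1 (0.280, SE 0.083, unadjusted p = 0.0110), Kif4-ps (0.267, unadjusted p = 0.0104), Dync1i1 (0.239, SE 0.095, unadjusted p = 0.0378) and Dynll2 (-0.116, SE 0.045, unadjusted p = 0.0343), all with an adjusted p of 1 in limma. Kif4-ps was named after its values were seen, and it lay below the negative controls on all arrays. Dync2li1 read 8.09, 8.14 and 8.15 in EDL mice, against 7.95, 7.79 and 7.79 in GS mice, and did not overlap. The other members with the largest differences between EDL and GS were Dctn2 (0.421, SE 0.411) and Dctn3 (0.360, SE 0.348) on the high side, and Trak2 (-0.225, SE 0.100) and Kif13b (-0.144, SE 0.069) on the low side. Kif13b, a kinesin-3, averaged 8.29 ± 0.04 in EDL MNs and 8.44 ± 0.09 in GS MNs (SD, n = 3 each).

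Many members carried the same value on several arrays. In 52 of 62 (83.9%) at least 1 value was repeated to 5 decimals between arrays, beside 70.7% of named genes, and in 19 a single value stood on 5 or more of the 9 arrays. Mapk8ip1 is an example, with 11.16 in all 3 EDL mice, and its SD of 0.00 in that pool describes the processed value and not the mice. Dynll1, Dynlrb1, Dynlt1-ps1, Trak2 and Dctn3 had no repeated value.

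The rest of the transport machinery was taken from 4 lists of related genes. Of 16 measured motor subunits and regulators outside the rule, such as the dynein heavy chain Dync1h1 and the dynactin arm Dctn1, 0 were called between EDL and TA (median 0.206). The 3 with the largest moderated t were Nudc, a dynein cofactor, at 0.550 (adjusted p = 0.0573), Capzb, the cap of the dynactin filament, at 0.329 (adjusted p = 0.0776), and Dctn1 at 0.410 (SE 0.124, adjusted p = 0.104, all limma). Of 29 other cargo adaptors 1 was called higher and 1 lower. Over all named genes 4.76% were called higher and 0.968% lower. The higher adaptor was the kinesin-1 adaptor Fez1 at 0.928 (SE 0.157, adjusted p = 0.0254 in limma). The lower was the receptor adaptor Grip1 at -0.270 (SE 0.049, adjusted p = 0.0294 in limma). Fez2 was next, at 0.415 (adjusted p = 0.0629 in limma).

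The tracks themselves are built of tubulin. Of 12 measured tubulins 6 were called higher in EDL than in TA MNs and 0 lower, beside 4.76% and 0.968% of named genes. All 12 lay above the negative controls on every array. Of the 14728 named genes that also did, 1292 were called higher and 257 lower. The tubulin differences ran from 0.169 to 1.286, with a median of 0.61. The 3 with the largest moderated t, though not the largest differences, were Tubg1 (0.568, SE 0.082, adjusted p = 0.0186), Tubb4b (0.692, adjusted p = 0.0236) and Tuba1a (0.340, adjusted p = 0.0278, all limma). Tubg1, the gamma tubulin that starts microtubules, read 12.93, 13.19 and 13.08 in EDL mice, 12.81, 12.79 and 12.79 in GS mice, and 12.36, 12.57 and 12.56 in TA mice. Of 28 microtubule-associated proteins and modifiers 4 were called higher and 1 lower, beside the same 4.76% and 0.968% of named genes. All 28 lay above the negative controls on every array, so the counts of 1292 and 257 of 14728 apply here too. Stmn1, which binds free tubulin, read 11.08, 11.12 and 11.16 in EDL mice, 10.93, 11 and 11.03 in GS mice, and 10.16, 10.06 and 9.99 in TA mice, so that all 3 TA mice were close together. Its difference was 1.049 between EDL and TA (SE 0.055, adjusted p = 0.00238 in limma) and 0.916 between GS and TA (adjusted p = 0.0151 in limma). With M3 as the only TA mouse, EDL minus TA was 1.13. Map2, which binds microtubules of the soma and dendrites, was lower in EDL (-0.368, SE 0.057, adjusted p = 0.0214 in limma), and Stmn4 was higher (0.811, SE 0.133, adjusted p = 0.0245 in limma). With each of the 9 mice left out in turn, Stmn1 stayed called in 9 of 9 fits, Tubg1 in 7, Map2 in 6, Tuba1a in 4, Tubb4b, Stmn4 and Grip1 in 3, and Fez1 in 2. Of the called genes not yet named, Tubb2b stayed in 3, Katna1 in 2, and Tubb4a, Tubb6 and Ttll1 in 1. Whether the tubulin share differs from that of the motors was not tested. With M3 as the only TA mouse, EDL minus TA was 0.5 for Tubg1, 0.43 for Tubb4b and 0.34 for Tuba1a. For Tubb2b, Tubb4a and Tubb6 it was 1.01, 0.54 and 0.81, against 1.286, 1.082 and 0.923 with all 3 TA mice.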

How the data were processed

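The deposited table holds log2 signals of GeneChip Mouse Transcriptome Assay 1.0 arrays, which the authors summarised by sst-RMA in Expression Console according to the methods. The submitters' notes name RMA and Transcriptome Analysis Console, so the sources differ on the tool. No value was transformed again. The table lists 72688 probe sets, 6732 of them array controls, and the other 65956 clusters were tested with limma 3.58.1 in R 4.3.3: 1 mean per pool over all 9 arrays, contrasts with moderated spread, two-sided p-values adjusted by Benjamini-Hochberg over all clusters, and a call at adjusted p under 0.05. The script was tested on simulated data, with changes placed in the less variable clusters and an equal spread in all pools. That test did not cover the wider spread of TA or the repeated values. Symbols came from the platform annotation (30638 clusters with 1 symbol, 2176 with several, 33142 with none). The text names every member called, a list of the members best known for axonal transport, the 3 members with the largest difference in each direction between EDL and GS, and up to 3 genes of each related list by moderated t. It also names the other called tubulins and microtubule genes, and Kif14 and Kif20b for their low signal. The members and lists were chosen with earlier results of these data known. Alternatives covered the pools in the fit, centring, quantile normalization, moderation and trend of the spread, array weights, a filter on dim clusters, the cluster that stands for a gene, and each mouse left out. With 3 arrays per pool their number limits the precision.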

Additional observations from a re-analysis of the deposited data

How the results depend on the processing

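Member calls numbered 4 between EDL and TA, 1 between GS and TA and 0 between EDL and GS, and the last count was 0 under every alternative run. EDL and TA fitted from the 2 pools compared alone gave 0, the unmoderated model 1, quantile normalization 8, and leaving out 1 mouse 0 to 12. Between GS and TA the count was 0 with array weights, median centring, the 2 pools alone, the unmoderated model or the trended spread. It was 0 to 10 with 1 mouse left out. Members trending from EDL down to TA (12) numbered 18 after centring, 2 at the adjusted threshold and 7 to 14 with 1 mouse left out. Those trending the other way (2) numbered 1 with array weights, centring, the dim filter, the trended spread or the adjusted threshold, 5 with quantile normalization and 1 to 3 with 1 mouse left out. The median member difference (0.017) was 0.101 after centring, 0.045 with the dim filter, 0.049 with quantile normalization, 0.004 without M0 and M1 and 0.003 to 0.017 with 1 mouse left out. Dctn3 passed the threshold with array weights (adjusted p = 0.0232), centring (0.0428), the dim filter (0.0271), quantile normalization (0.0412) and without M3 (0.000179, all limma). Of 576 values of 32 genes under 18 alternatives, 38 lost a call, 14 gained one and 0 reversed a call; 15 genes changed sign without a call under some alternative. Shares of all named genes called were not counted under the alternatives. Fits with a mouse left out hold fewer arrays. The fit without M0 and M1 is among the 18 alternatives, with M3 as its only TA mouse. Otherwise the cause was not tested. No paired analysis was possible because no mouse number is shared between pools.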
